A study of Mus musculus with 31 samples.

Results

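The 10 genes of the Wnt pathway followed here through the 4 groups of eyes are known from the developing optic cup. They include the ligands Wnt2b and Wnt7b, the receptor Fzd5, the secreted inhibitors Sfrp1, Sfrp2 and Dkk1 and the Dickkopf-related secreted protein Dkk3. The others are the intracellular inhibitor Axin2, the DNA-binding factor Lef1 and the homeobox factor Msx1. All non-control probes that carry one of these names were taken, which gave 13 probes for the 10 genes out of 55681 probes on the array, with 2 probes each for Fzd5, Axin2 and Lef1. The rule that picks the probes uses their names alone, while the genes themselves were proposed with earlier results of these data known. RNA came from whole eyes of normal appearance at E13.5 on a C57BL/6N background, with the pigmented layer removed by surgery. The 31 1-colour Agilent arrays analysed here cover 3 eyes each of WT females, WT males and hemizygous Ftx-/Y males, with a single array per eye. They also cover 11 eyes of homozygous Ftx-/- females, with 2 arrays per eye. Ftx is a long non-coding RNA gene of the X-inactivation centre, and the targeted allele also loses the 2 microRNAs that it hosts, miR-374 and miR-421. The WT female eyes carry the numbers 1, 2 and 4.

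In the canonical Wnt pathway, a secreted Wnt ligand binds a Frizzled receptor with an Lrp co-receptor, the complex that degrades beta-catenin is switched off, and beta-catenin enters the nucleus and acts with factors of the TCF/LEF family. Sfrp proteins are secreted and bind Wnt ligands, Dkk1 is secreted and blocks the Lrp co-receptor, and Axin2 is a scaffold of the degradation complex whose own gene is turned on by the pathway, so that it limits the signal. In the eye the pathway is known for its work at the rim of the optic cup, where ciliary body and iris form, in the pigment epithelium and in the surrounding mesenchyme, and Fzd5 is known to be needed in the neural retina.

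The label optic cup was checked against marker genes, since the samples were whole eyes. The retinal progenitor markers Rax and Lhx2 were well above background on all 31 arrays. Lens crystallin genes were equally detected, and the pigment genes Tyr, Tyrp1 and Dct were still well above background on all 31 arrays, so the signal of a Wnt gene cannot be assigned to the optic cup alone. In such bulk samples fewer cells of a type and less RNA per cell cannot be told apart.

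The eyes stood on 4 slides, and slide followed group closely. Slide 1 held all WT eyes and Ftx-/Y eye 1, slide 2 held the other two Ftx-/Y eyes together with Ftx-/- eyes 1 to 3, slide 3 held Ftx-/- eyes 4 to 7 and slide 4 held Ftx-/- eyes 8 to 11. No slide carried both WT and Ftx-/- females, so their comparison rests on eyes from different slides, linked only through the Ftx-/Y males, of which a single eye stood on slide 1. Ftx itself, by probe A_55_P2175002, had a signal of 50.1 to 134 in WT females, 101 to 110 in WT males, 13.1 to 18.6 in Ftx-/Y males and 8.24 to 37.4 in Ftx-/- females, so that both mutant groups lay below both WT groups. It exceeded the background on every WT array, on no array of the Ftx-/Y males and on 9 of the 22 arrays of the Ftx-/- females. A dimmer Ftx probe, A_55_P2175007, gave 23.0 to 49.6 in WT females and 6.36 to 20 in Ftx-/- females, but in males its ranges of 13.8 to 22.1 in WT and 6.39 to 18.6 in Ftx-/Y eyes overlapped and no array exceeded the background. Whether the probes lie inside the deleted stretch is not given in the sources used here.

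The value of a probe is its log2 signal after quantile-spline normalization, with the 2 arrays of an Ftx-/- eye averaged. Groups were compared with limma in a single fit over all 20 eyes. A signal minimum of 500, applied to the WT female mean, left 14056 probes that were tested together, and 5 of the 13 passed it: one each for Fzd5 (A_66_P128199), Sfrp1, Sfrp2, Dkk3 and Lef1 (A_55_P2076871). The other 8, below the minimum, were tested in the same fit over all 55681 probes. A probe was called when its Benjamini-Hochberg adjusted p was under 0.05.

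For the genes with 2 probes, the last 30 of the 60 bases are shown, because the probes of a gene did not give the same result, with runs of at least 6 A or T in capitals.
Axin2 A_55_P2000783: tgtagccTTTATTAAAATTTTATATTTTTc
Axin2 A_66_P134405: caaatgcaaaagccacccgaaggctccaga
Fzd5 A_51_P166456: tgggcaaccaaaacctgaactcactacgaa
Fzd5 A_66_P128199: acctagatgcaggactctgtgaaggtctta
Lef1 A_51_P420400: tctgaaacatggtggtaagagaagctcctt
Lef1 A_55_P2076871: cgaaaacggttgtttcggaaaaagAAAAAA
In mm9, the build of the files, the Axin2 probes lie at chr11:108812034-108812093 and chr11:108803927-108803986 on the plus strand, the Fzd5 probes at chr1:64781972-64782030 and chr1:64779479-64779538 on the minus strand, and the Lef1 probe A_55_P2076871 at chr3:130926200-130926259 on the plus strand. The GC content was 20% for Axin2 A_55_P2000783 and 48.3% for Axin2 A_66_P134405, while the Fzd5 and Lef1 probes lay between 41.7% and 55.0%.

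**Figure D1:**
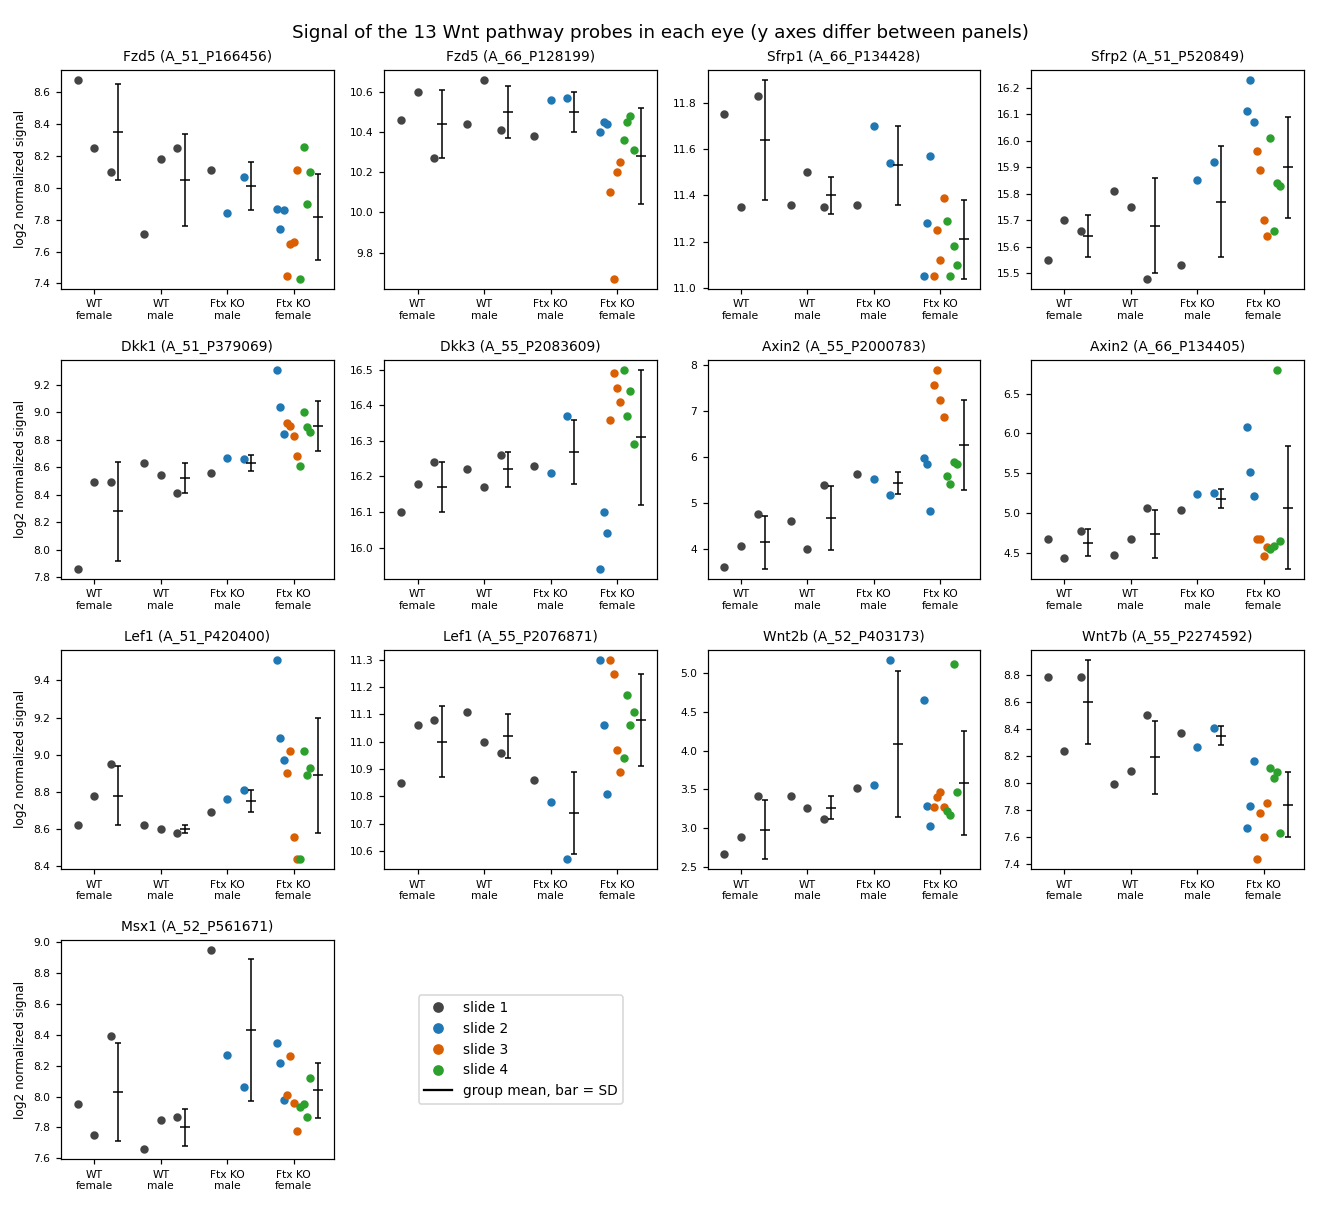
Log2 normalized signal of the 13 probes (one panel each, y axes differ) in WT female, WT male, Ftx KO male (Ftx-/Y) and Ftx KO female (Ftx-/-) eyes. Each point is 1 eye, coloured by slide, and the bar beside each group is its mean with SD. For Dkk1 every Ftx-/- eye lies above every WT female eye, for Wnt7b every Ftx-/- eye lies below, and for Axin2 A_55_P2000783 the 4 eyes of slide 3 stand highest.

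In females, 5 of the 13 probes changed with the loss of Ftx, each of a different gene. Wnt7b, Sfrp1 and 1 of the 2 Fzd5 probes were lower in Ftx-/- eyes, and Dkk1 and 1 of the 2 Axin2 probes were higher. Among all probes, 15.8% were called in this comparison, and 35.1% of those above the minimum, and the calls fell as 1 of the 5 probes above the minimum and 4 of the 8 below it. Nothing is read from these counts about the genes as a group, since probes are few and were chosen with results known. The median log2 fold change was 0.11 over the 13 probes and 0.02 over all probes. When slide was included as a fixed block, none of the 13 probes was called (adjusted p between 0.198 and 0.974) and the number of calls over all probes fell from 8790 to 366, with standard errors that rose 1.98-fold (median of the probes above the minimum). The estimates of the 5 called probes kept their direction under the block. Slides 3 and 4 held Ftx-/- eyes alone, so those eyes add nothing to the female estimate under the block. It rests on Ftx-/- eyes 1 to 3 and is linked to WT females through the Ftx-/Y males. Of these males, only eye 1 stood on the slide of the WT eyes. With slide as a random block, 4 of the 5 stayed called (adjusted p of 0.0109 for Wnt7b, 0.0126 for Dkk1, 0.0174 for Axin2 A_55_P2000783 and 0.0337 for Sfrp1), and Fzd5 A_51_P166456 was lost (adjusted p = 0.114).

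**Figure D2:**
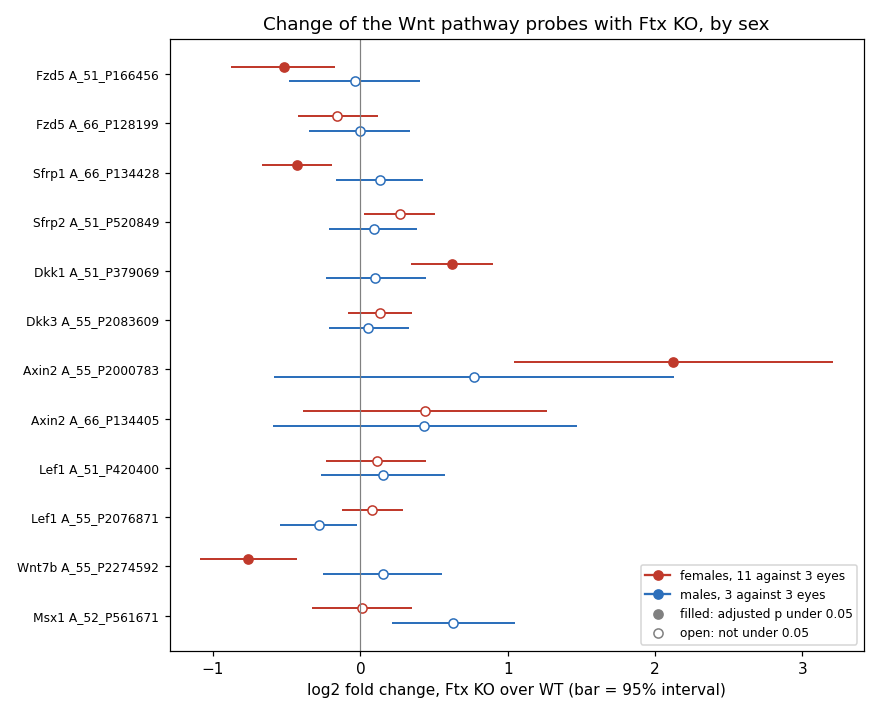
Log2 fold change of Ftx KO over WT for the probes other than that of Wnt2b, which is given no fold, in females (11 against 3 eyes) and males (3 against 3 eyes), with 95% intervals from limma and filled points where the adjusted p was under 0.05. The filled points are all in females: Fzd5 A_51_P166456, Sfrp1, Dkk1, Axin2 A_55_P2000783 and Wnt7b.

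Wnt7b encodes a ligand expressed in the optic cup and the ocular ectoderm. Its log2 signal was 8.78, 8.24 and 8.78 in WT female eyes 1, 2 and 4, and in the 11 Ftx-/- eyes it ran from 7.44 to 8.16 with a median of 7.83. The 2 groups did not overlap. In males it was 7.99, 8.09 and 8.50 in WT and 8.37, 8.27 and 8.41 in Ftx-/Y eyes, which overlapped. In linear terms the mean signal was 393 ± 78.3 (SD, n = 3) in WT females, 296 ± 57.9 (SD, n = 3) in WT males, 326 ± 15.3 (SD, n = 3) in Ftx-/Y males and 231 ± 37.6 (SD, n = 11) in Ftx-/- females. The female log2 fold change was -0.76 ± 0.15 (SE; adjusted p = 0.00251), with all 11 eyes below the WT mean. In males it was 0.15 ± 0.19 (SE; adjusted p = 0.812). The female change minus the male change was -0.92 ± 0.24 (SE), which did not pass after adjustment (adjusted p = 0.233). The fall in females kept its call when any single eye was left out, with the log2 fold change between -0.94 and -0.67 and an adjusted p of at most 0.0337. The call was lost with the slide block (-0.69 ± 0.33 (SE), adjusted p = 0.519) and with the series table, whose intensities had no scaling from array to array (-0.53, adjusted p = 0.0767). It was also lost with the methods' t-test (-0.77, unadjusted p = 0.0619, adjusted p = 0.246).

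Ftx-/- females also lay below Ftx-/Y males at Wnt7b, with a log2 fold change of -0.51 ± 0.15 (SE; adjusted p = 0.131), and all 11 female eyes lay below the 3 male eyes. On slide 2 alone, the slide that held both, the value was -0.45 ± 0.17 (SE; adjusted p = 0.608). WT females exceeded WT males by 0.40 ± 0.19 (SE; adjusted p = 0.371). The order of the means was thus WT female, Ftx-/Y, WT male and Ftx-/-, and of the 4 pairs tested here WT against Ftx-/- females passed. With the methods' t-test the mutant sexes were called (-0.50, adjusted p = 0.0113) and the females were not.

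Wnt2b, a ligand known from the pigment epithelium, the rim of the cup and the mesenchyme, was hardly measured. Its probe was well above background on none of the WT arrays, on 1 of the 3 arrays of Ftx-/Y males and on 1 of the 22 of Ftx-/- females, and no fold is given, since the mean signal of the brighter group did not exceed the lowest signal counted as well above background. The log2 signal was 2.66 to 3.41 in the WT eyes of both sexes. It reached 5.17 in Ftx-/Y eye 3 and 4.65 and 5.12 in Ftx-/- eyes 1 and 10, and was 3.02 to 3.55 in the other mutant eyes. The value of eye 10 came from one of its arrays, with 6.58 on array 2 and 3.66 on array 1. Wnt2b was called in none of the comparisons.

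Fzd5, a Frizzled receptor of the neural retina, gave different results with its 2 probes. With A_51_P166456 the log2 signal was 8.68, 8.25 and 8.10 in WT female eyes and between 7.43 and 8.26 (median 7.86) in Ftx-/- eyes. The ranges overlapped, all 11 mutant eyes lay below the WT mean, and the log2 fold change was -0.52 ± 0.17 (SE; adjusted p = 0.0383). With A_66_P128199, the probe above the signal minimum, it was 10.46, 10.60 and 10.27 in WT females and between 9.67 and 10.48 (median 10.36) in Ftx-/- eyes. That change was -0.16 ± 0.13 (SE; adjusted p = 0.357), with a 95% interval from -0.42 to 0.11. The lowest Ftx-/- eye of this probe was eye 5, and the 4 eyes of slide 3 had a mean of 10.06 against 10.43 and 10.40 on slides 2 and 4.

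The fall at Fzd5 A_51_P166456 was called in 26 of the 41 settings run, against 35 to 38 for the other 4 called probes. It was lost without WT female eye 1 (log2 fold change -0.36, adjusted p = 0.316), without WT female eye 2 (-0.57, adjusted p = 0.0891), and, at an almost equal value of -0.51, without Ftx-/- eye 5 (adjusted p = 0.0529) or eye 6 (adjusted p = 0.0541). With the series table it was -0.30 (adjusted p = 0.201). In males the changes were -0.04 ± 0.21 (SE; adjusted p = 0.981) with A_51_P166456 and between -0.34 and 0.33 (95% interval; adjusted p = 0.998) with A_66_P128199.

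Among the 4 secreted Sfrp and Dkk genes, 1 was lower and 1 higher in Ftx-/- females, and the others were not called. Sfrp1, which binds Wnt ligands outside the cell, had a log2 signal of 11.75, 11.35 and 11.83 in WT female eyes and between 11.05 and 11.57 (median 11.18) in Ftx-/- eyes. WT female eye 2 lay inside the mutant range. Its log2 fold change was -0.43 ± 0.11 (SE; adjusted p = 0.00542), and all 11 eyes lay below the WT mean. The WT male eyes, at 11.36, 11.50 and 11.35, and the Ftx-/Y eyes, at 11.36, 11.70 and 11.54, overlapped, and the change in males was 0.13 ± 0.14 (SE; adjusted p = 0.744). The call in females was lost in 6 of the 41 settings run. The value was -0.14 (adjusted p = 0.563) with the series table and -0.44 (unadjusted p = 0.109, adjusted p = 0.208) with the methods' t-test. It was -0.61 (adjusted p = 0.221) with the slide block and -0.34 (adjusted p = 0.0552) without WT female eye 4.

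The difference between the sexes at Sfrp1 was -0.56 ± 0.18 (SE), and it did not pass after adjustment (adjusted p = 0.185). Ftx-/- females were below Ftx-/Y males by a log2 fold change of -0.32 ± 0.11 (SE; adjusted p = 0.149), and the same value of -0.32 was found on slide 2 alone (adjusted p = 0.495). Without the Ftx-/- eyes of slide 2 that comparison was called, at -0.36 (adjusted p = 0.0316).

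Dkk1, which blocks the Lrp co-receptor, was the inhibitor that rose. The log2 signal was 7.86, 8.49 and 8.49 in WT female eyes, and the 11 Ftx-/- eyes ran from 8.61 to 9.31 with a median of 8.89. The 2 groups did not overlap. The mean signal was 317 ± 72.7 (SD, n = 3) in WT females, 369 ± 28.1 (SD, n = 3) in WT males, 396 ± 15.6 (SD, n = 3) in Ftx-/Y males and 481 ± 64.1 (SD, n = 11) in Ftx-/- females. The log2 fold change in females was 0.62 ± 0.13 (SE; adjusted p = 0.00305), or 1.54-fold. In males it was 0.10 ± 0.16 (SE; adjusted p = 0.870). No neighbours in this order of the 4 means differed past the threshold, with adjusted p of 0.532 for the WT sexes, 0.870 for the males and 0.352 for the mutant sexes, while WT and Ftx-/- females, its ends, were called apart. With the methods' t-test and fold limits both the females and the mutant sexes were called, and after Benjamini-Hochberg adjustment of that test the females were not (0.60, adjusted p = 0.194) and the mutant sexes were (0.28, adjusted p = 0.0481). The pairs WT female with Ftx-/Y and WT male with Ftx-/- were not tested.

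WT female eye 1 was the lowest for Dkk1, and without it the log2 fold change was 0.41 and the adjusted p 0.0558, and with the slide as a block it was 0.68 ± 0.28 (SE; adjusted p = 0.412). On slide 2 alone, Ftx-/- females exceeded Ftx-/Y males at Dkk1 by 0.40 ± 0.15 (SE; adjusted p = 0.608). Markers of periocular mesenchyme, the tissue around the eye, moved in the comparison of Ftx-/- with WT females. There 10 of 13 probes for 12 such genes were called higher and none lower, where 15.8% of all probes were called. Their summed signal was 4090 to 5970 in WT females and 6290 to 52600 in Ftx-/- females. In males the sums were 5750 to 14400 in WT and 5350 to 10600 in Ftx-/Y eyes, and no marker was at background on all arrays. Their part in the Dkk1 result was not tested.

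The promoter of Dkk1 is shown because, of the 3 called genes with a listed promoter (Dkk1, Axin2 and Fzd5), it held a word found in TCF/LEF sites. The word, CTTTGA or its reverse complement TCAAAG, was sought in the 250 bases before the start. Other forms of the TCF/LEF site, apart from the longer word below, were not searched and are not marked. The matches are in capitals, and the sequence is that of RefSeq on GRCm38.p6, chr19:30549497-30549746, minus strand.
Dkk1 promoter: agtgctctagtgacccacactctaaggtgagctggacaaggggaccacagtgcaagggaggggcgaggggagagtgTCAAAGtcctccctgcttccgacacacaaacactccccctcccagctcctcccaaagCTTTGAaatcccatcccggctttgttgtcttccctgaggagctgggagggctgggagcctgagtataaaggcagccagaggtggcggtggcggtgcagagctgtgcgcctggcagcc
The matches begin 174 and 117 bases before the start. Of 32851 promoters of this length, 13.8% hold 1 of these words on either strand. A promoter was found for 7 of the 10 genes (not for Sfrp1, Dkk3 and Wnt7b), and Lef1, with 4 listed starts, held TCAAAG before 1 of them, at 180 and 120 bases. The promoters of Fzd5, Sfrp2, Axin2, Wnt2b and Msx1 held neither word. The longer word CTTTGAT or its reverse complement ATCAAAG was in 3.21% of all promoters and in none of these. The Axin2 promoter, on the plus strand at chr11:108920099-108920348, is shown beside it as that of the gene most used as a pathway target.
Axin2 promoter: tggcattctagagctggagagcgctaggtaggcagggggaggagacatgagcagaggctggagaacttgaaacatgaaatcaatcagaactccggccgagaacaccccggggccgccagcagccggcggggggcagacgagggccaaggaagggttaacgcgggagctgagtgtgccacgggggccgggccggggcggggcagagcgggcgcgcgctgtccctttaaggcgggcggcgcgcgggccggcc

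Sfrp2, a second secreted Frizzled-related protein that is known from the retina, had a log2 signal of 15.55, 15.70 and 15.66 in WT female eyes and between 15.64 and 16.23 (median 15.89) in Ftx-/- eyes. All 11 mutant eyes lay above the WT mean, with an overlap at the low end, and the change of 0.27 ± 0.11 (SE; adjusted p = 0.0719) did not pass. It passed in 9 of the 41 settings, among them the 75th percentile as the scale (0.23, adjusted p = 0.0434) and without Ftx-/- eye 7 (0.29, adjusted p = 0.0453) or eye 9 (0.29, adjusted p = 0.0483). The 3 eyes of slide 2 had the highest mean, 16.14, against 15.80 and 15.83 on slides 3 and 4. In males the change was 0.09 ± 0.14 (SE; adjusted p = 0.849).

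Dkk3, a Dickkopf-related secreted protein, differed between the slides of the Ftx-/- eyes. Its log2 signal was 16.10, 16.18 and 16.24 in WT female eyes. The Ftx-/- eyes of slide 2 lay at 15.94, 16.10 and 16.04, while the 8 eyes of slides 3 and 4 lay between 16.29 and 16.50, with no overlap. Over all eyes the change was 0.13 ± 0.10 (SE; adjusted p = 0.314), and it moved with the slide left out: 0.24 (adjusted p = 0.00281) without the Ftx-/- eyes of slide 2, 0.07 (adjusted p = 0.655) without those of slide 3 and 0.08 (adjusted p = 0.587) without those of slide 4. With slide as a fixed block it turned to -0.21 ± 0.12 (SE; adjusted p = 0.374), and the sign turned in 2 of the 41 settings. On slide 2 itself, Ftx-/- females lay below Ftx-/Y males at Dkk3 by -0.27 ± 0.08 (SE; adjusted p = 0.371) on the log2 scale. In males, WT against Ftx-/Y, the change was 0.05 ± 0.13 (SE; adjusted p = 0.902).

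Axin2 was measured near the background and its probes disagreed. With A_55_P2000783 the log2 signal was 3.61, 4.07 and 4.77 in WT female eyes, 4.61, 4.01 and 5.40 in WT male eyes, 5.63, 5.52 and 5.17 in Ftx-/Y eyes and 4.82 to 7.90 (median 5.90) in Ftx-/- eyes. Ftx-/- and WT female eyes did not overlap, and the change was 2.12 ± 0.51 (SE; adjusted p = 0.00882). The size of this change is uncertain, since the probe was well above background on 1 of 3 arrays in each WT group, on all arrays of Ftx-/Y males and on 21 of the 22 of Ftx-/- females. Ftx-/- eyes 4 to 7, the eyes of slide 3, had a mean of 7.40, against 5.55 on slide 2 and 5.68 on slide 4. The change was 1.48 without the eyes of slide 3, and 0.81, the lowest over the settings, with normexp background correction and quantile normalization. The call was lost with the slide block (1.69 ± 0.72 (SE), adjusted p = 0.431), with the series table (1.53, adjusted p = 0.0986), on the 75th percentile scale (1.28, adjusted p = 0.0712), with the methods' t-test after adjustment (2.36, adjusted p = 0.0523) and without WT female eye 1 (1.86, adjusted p = 0.0835).

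With the other Axin2 probe, A_66_P134405, the log2 signal was 4.68, 4.44 and 4.78 in WT female eyes and between 4.46 and 6.80 (median 4.67) in Ftx-/- eyes. The groups overlapped, and the change was 0.44 ± 0.39 (SE; adjusted p = 0.481). Its high eyes were Ftx-/- eyes 10, 1 and 2, at 6.80, 6.08 and 5.52, and not the eyes of slide 3, which lay highest with the first probe, and eye 10 read 8.26 on array 1 and 5.34 on array 2. Over the 11 Ftx-/- eyes the first probe spread by an SD of 0.98 between eyes and 0.22 between the arrays of an eye, and the second by 0.77 and 0.82. The low GC content of the first probe is shared by few: 153 probes (0.275% of all) had as little or less, of which 12.4% were called higher in Ftx-/- females and 0.654% lower, against 7.74% called higher and 8.04% called lower among all probes. The part of base composition in the result was not tested.

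Lef1, a TCF/LEF factor that binds beta-catenin, was close in WT and Ftx-/- females. With A_55_P2076871 the log2 signal was 10.85, 11.06 and 11.08 in WT female and 10.81 to 11.30 (median 11.06) in Ftx-/- eyes, a change of 0.08 ± 0.10 (SE; adjusted p = 0.549) with a 95% interval from -0.12 to 0.28. With A_51_P420400 the change was 0.11 ± 0.16 (SE; adjusted p = 0.694), with an interval from -0.23 to 0.44. In males the first probe lay between 10.96 and 11.11 in WT and 10.86, 10.78 and 10.57 in Ftx-/Y eyes, with no overlap, and its change of -0.28 ± 0.12 (SE; adjusted p = 0.375) did not pass, while the second gave 0.15 ± 0.20 (SE; adjusted p = 0.830), with the sign turned and no overlap either. Ftx-/- females exceeded Ftx-/Y males with the first probe by 0.34 ± 0.10 (SE; adjusted p = 0.0814), in all 11 eyes against the male mean, and this comparison was called without Ftx-/- eye 3 (0.36, adjusted p = 0.0338) and without the Ftx-/- eyes of slide 2 (0.35, adjusted p = 0.0229).

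Msx1, a homeobox factor of the cup's rim and of craniofacial mesenchyme, had a log2 signal of 7.95, 7.75 and 8.39 in WT female eyes and of 7.78 to 8.35 (median 7.98) in Ftx-/- eyes, all inside the WT range. The change was 0.01 ± 0.16 (SE; adjusted p = 0.976). In males the groups lay further apart: 7.66, 7.85 and 7.87 in WT and 8.95, 8.27 and 8.06 in Ftx-/Y eyes, without overlap. This change of 0.63 ± 0.20 (SE; adjusted p = 0.201) did not pass. Its highest eye, Ftx-/Y eye 1, stood on the slide of the WT eyes, where it exceeded the WT males by 1.15 ± 0.26 (SE; adjusted p = 0.287), and with slide as a fixed block the male change at Msx1 was also 1.15 (adjusted p = 0.0140). That value rests on this 1 mutant eye, since the other two Ftx-/Y eyes share no slide with WT males, and it assumes that the eye varies like the other groups. The same eye is the link between slide 1 and the slides of the Ftx-/- females, and with the fixed block the female change at Msx1 was 0.94 ± 0.28 (SE; adjusted p = 0.198), not called, and the female change minus the male change was -0.21 ± 0.23 (SE; adjusted p = 0.848). With slide as a random block the change was 0.69 (adjusted p = 0.256) in males and 0.11 (adjusted p = 0.763) in females.

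In males none of the 13 probes was called, against 0.104% of all probes and 0.0213% of those above the minimum. At an unadjusted p under 0.05 there were 2, Msx1 and Lef1 A_55_P2076871, where 12.9% of all probes lay. Between WT females and WT males none was called either, against 0.424% of all probes, with 1 (Wnt7b) at an unadjusted p under 0.05, where 13.4% of all probes lay. Between Ftx-/- females and Ftx-/Y males none was called against 0.867% of all probes, and 5 had an unadjusted p under 0.05, as had 14.0% of all probes. For the female change minus the male change none was called against 0.00898% of all probes, and again 5 had an unadjusted p under 0.05 (Wnt7b, Sfrp1, Dkk1, Msx1 and Lef1 A_55_P2076871), as had 10% of all probes. These comparisons share groups: the female and the sex comparisons use the same WT female and Ftx-/- eyes. A change called in females and not in males is thus not shown to differ between the sexes for any of these genes.

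How far the genes varied among the 11 Ftx-/- eyes was set beside the spread of the 2 arrays of an eye, which share the RNA of that eye. For 11 of the 13 probes the SD between eyes exceeded the SD between arrays, by 1.81-fold (Lef1 A_55_P2076871) to 4.54-fold (Axin2 A_55_P2000783). For Axin2 A_66_P134405 and Wnt2b it did not, with ratios of 0.937 and 1.00. Slide carried much of the spread for Axin2 A_55_P2000783, whose SD fell from 0.98 to 0.44 when slide means were taken out, and for Dkk3, from 0.19 to 0.08. It carried little for Wnt7b, from 0.24 to 0.22, Dkk1, from 0.18 to 0.17, and Sfrp1, at 0.17 in both. No probe of these genes was saturated or had a spot left out on any array.

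**Figure D3:**
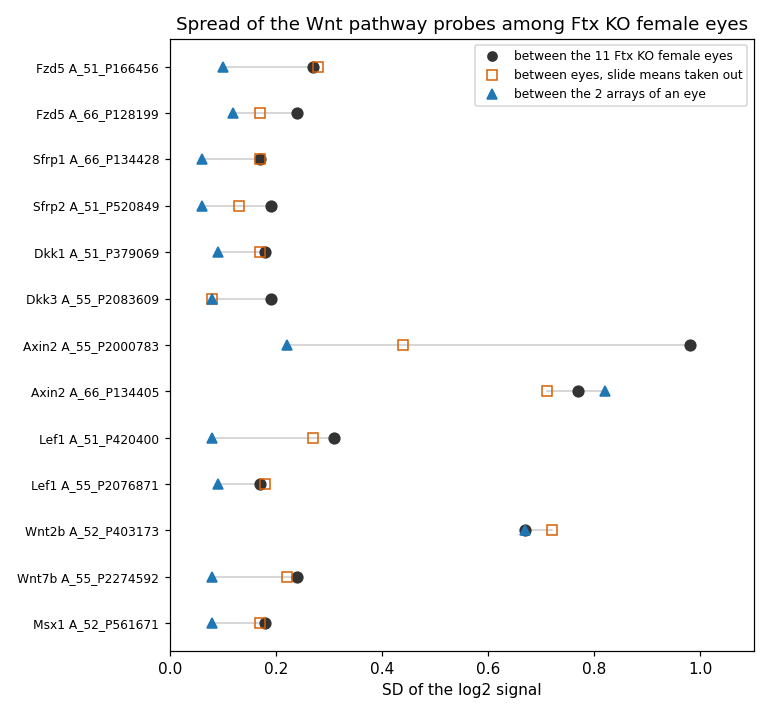
SD of the log2 signal for each probe among the 11 Ftx-/- eyes (circles), the same after slide means were taken out (squares) and between the 2 arrays of an eye (triangles). Axin2 A_55_P2000783 has the widest spread between eyes, 0.98, and Axin2 A_66_P134405 and Wnt2b the widest between arrays, 0.82 and 0.67.

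Among these 11 eyes the correlation of the log2 signals was 0.94 for Dkk1 and Lef1 A_51_P420400 (0.92 with slide means taken out), 0.68 for Dkk1 and Lef1 A_55_P2076871 (0.89), 0.79 for Lef1 A_51_P420400 and Msx1 (0.73) and 0.73 for Dkk1 and Msx1 (0.63). Ftx-/- eye 1 was the highest for Dkk1, Lef1 A_51_P420400 and Msx1. The most negative value was -0.84 (-0.55), for Fzd5 A_66_P128199 and Axin2 A_55_P2000783. Sfrp1 and Lef1 A_55_P2076871 stood at -0.79 (-0.83), Sfrp1 and Dkk1 at -0.50 (-0.90), and Sfrp1 with Wnt7b at 0.58 (0.80). These are descriptions over eyes that share slides and RNA processing.

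The named genes most like each member, by the correlation of deviations from the 4 group means over the 20 eyes among 11660 probes above the minimum, were Seh1l for Sfrp2 (0.96), Tnfsf9 for Dkk1 (0.94), Mrpl30 for Axin2 A_55_P2000783 (0.93), Hist1h1b for Fzd5 A_66_P128199 (0.92), Npl for Sfrp1 (0.89), R3hdm1 for Dkk3 (0.89), Pla2g7 for Wnt7b (0.88), Cd83 for Lef1 A_55_P2076871 (0.79), S1pr3 for Msx1 (0.75) and Dcaf8 for Wnt2b (0.74). Each is the best of many, and the eyes share slides. The Wnt2b probe was well above background on no WT array, 1 of 3 Ftx-/Y arrays and 1 of 22 Ftx-/- arrays. Its value here thus ranks readings near the background.

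Around these 10 genes, 88 other genes of the pathway on 8 lists had 120 probes, 46 of them above the signal minimum. In females 21 of the 46 changed, 10 higher and 11 lower, or 45.7% against the 35.1% of all probes above the minimum, with a median log2 fold change of 0.05 against -0.02. In males none of the 46 was called. For the female change minus the male change, none of the 14056 probes above the minimum was called. The changes of these genes in females are thus not shown to differ between the sexes. With slide as a block none of the 46 was called in females.

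Receptors and co-receptors had 10 probes above the minimum, with 3 higher and 1 lower in Ftx-/- females. That is 40.0%, against 35.1% of all probes above the minimum. The Frizzled gene Fzd1 rose from a mean signal of 1330 ± 130 (SD, n = 3) to 2010 ± 299 (SD, n = 11), a log2 fold change of 0.58 ± 0.11 (SE; adjusted p = 5.42e-04). The Wnt-binding receptor kinase-like gene Ryk rose by 0.43 ± 0.06 (SE; adjusted p = 1.28e-04), and Tspan12, a partner of Fzd4, rose by 0.33 ± 0.07 (SE; adjusted p = 9.91e-04). The co-receptor gene Lrp5 was lower, at -0.46 ± 0.17 (SE; adjusted p = 0.0383). Of the other ligands only Wnt5b passed the minimum, and it was lower, at -0.24 ± 0.08 (SE; adjusted p = 0.0178). Below the minimum, 2 ligand probes were called higher and 4 lower in the fit over all probes, where 15.8% of all probes were called.

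The R-spondin module, which protects Frizzled receptors from degradation, had 2 probes above the minimum, and they moved in opposite ways in females. The secreted Rspo1 was lower, at -0.38 ± 0.10 (SE; adjusted p = 0.00766), and its receptor Lgr5 was higher, at 0.36 ± 0.09 (SE; adjusted p = 0.00411). Above the minimum, neither of the 2 probes of the other secreted inhibitors was called, and neither were the 4 of the other beta-catenin targets nor the 1 of Wnt secretion. Below it, 2 probes of the other inhibitors and 2 of the other targets were called higher, and none lower, in the fit over all probes. In the same way 1 receptor probe, 1 R-spondin module probe and 2 probes of TCF factors and partners were higher, and 1 of the degradation complex and 1 of the TCF list were lower.

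Beta-catenin and its degradation complex had 16 probes above the minimum, with 4 higher and 6 lower, or 62.5% against 35.1% of all such probes. Beta-catenin itself, Ctnnb1, rose by 0.24 ± 0.07 (SE; adjusted p = 0.0167), from a mean signal of 13700 ± 369 (SD, n = 3) to 16200 ± 1350 (SD, n = 11). The kinase gene Csnk1a1 rose by 0.44 ± 0.09 (SE; adjusted p = 0.00135) with 1 probe and was not called with the other (-0.11, adjusted p = 0.497). The ubiquitin ligase subunit Btrc rose by 0.34 ± 0.08 (SE; adjusted p = 0.00412). Lower were the signal transducers Dvl3, at -1.68 ± 0.32 (SE; adjusted p = 6.76e-04), and Dvl1, at -0.48 ± 0.09 (SE; adjusted p = 5.24e-04), and the kinase gene Gsk3a, at -0.32 ± 0.08 (SE; adjusted p = 0.00368). Dvl3 also had a wide spread among WT eyes, with a signal of 10300 ± 2860 (SD, n = 3) in females and 6420 ± 2640 (SD, n = 3) in males.

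TCF factors and nuclear partners had 10 probes above the minimum, 2 higher and 2 lower, or 40.0% against 35.1% of all such probes. Tcf7l2, a TCF factor, was lower, at -0.75 ± 0.24 (SE; adjusted p = 0.0215), and Pygo2, which joins the beta-catenin complex, was higher, at 0.20 ± 0.07 (SE; adjusted p = 0.0243). The corepressor Tle1 had probes that disagreed, with 0.30 ± 0.08 (SE; adjusted p = 0.00525) and -0.39 ± 0.10 (SE; adjusted p = 0.00436) among its 4, the other two not called.

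**Figure D4:**
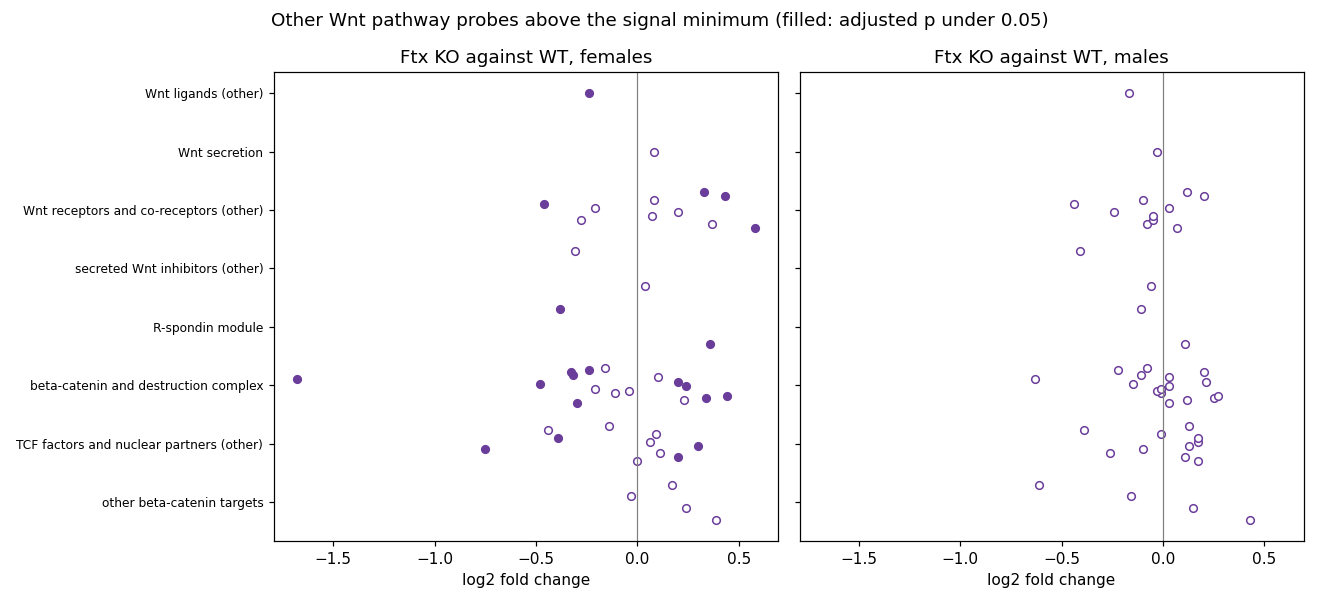
Log2 fold change of Ftx KO over WT for the 46 other Wnt pathway probes above the signal minimum, by list, in females (left) and males (right), with filled points where the adjusted p was under 0.05. In females 10 filled points lie above 0 and 11 below, and in males no point is filled.

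Other tissue markers that moved in females stand beside these results, counted over the probes above the minimum. Of all probes above it, 35.1% were called in females. Of 15 lens probes, 12 were called lower, with a summed signal of 1210000 to 1320000 in WT females and 897000 to 1200000 in Ftx-/- females, and of 9 retinal neuron probes 5 were lower and 1 higher, with sums of 174000 to 214000 and 149000 to 187000. Of 10 retinal progenitor probes 2 were higher, and of 5 ciliary margin probes none was called, with sums of 15700 to 17500 in WT females and 15500 to 20000 in Ftx-/- females. Of 5 pigment epithelium probes 1 was higher, with sums of 22200 to 23200 in WT females and 20400 to 50800 in Ftx-/- females. Of 5 erythroid probes 3 were higher, with sums of 108000 to 121000 and 118000 to 242000 (Epb4.2 was above background on no array), and in males, where none was called, the sums were 93200 to 122000 in WT and 135000 to 265000 in Ftx-/Y eyes. Above the minimum, 1 of 2 endothelium probes was lower and 1 of 3 macrophage probes higher. Neither of the 2 surface ectoderm probes was called, and no muscle probe passed the minimum. Below the minimum, 1 retinal progenitor and 1 surface ectoderm probe were called lower and 1 macrophage probe higher in the fit over all probes, beside 9 of the 10 mesenchyme calls given above. The part of these tissues in the results of the Wnt genes was not tested.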

How the data were processed

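The data analysed here are 31 1-colour arrays of RNA from 20 mouse eyes. The authors deposited background-subtracted intensities per spot with flags (Agilent Feature Extraction 11.0.1.1 per the file headers), not normalized between arrays, and a series table of the same intensities that differs by rounding of at most 0.5%. Probe positions are those of mm9. Here the intensities were normalized with the quantile-spline method named in the study's methods, written out in R 4.3.3 (100 quantiles, 5 iterations, offset of at least 5), since it changes the scale of every array. Flagged spots (120 non-uniform, 5639 population outliers) were left out, log2 values were averaged over the spots of a probe and then over both arrays of an Ftx-/- eye, and the number of arrays limits the precision. Groups were compared with limma 3.58.1 (trend on the mean) over all 20 eyes, with Benjamini-Hochberg adjustment over 14056 probes above a signal of 500 in WT females, or over all 55681 probes for genes below it. Whether eyes of a group came from separate litters is not given in the sources used here, so p-values measure the spread between eyes.

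All probes of the 10 genes are named. Of other Wnt lists, the text names at most the 3 called probes of smallest p per list and direction, and, for each gene, the named gene most like its brightest probe (highest mean log2 signal over the 20 eyes). Apc2, Dvl2 and Gsk3b fell outside that limit. The genes and lists were chosen with earlier results of these data known. The methods' text counts 4 WT female eyes, and 3 are analysed here. It also describes duplicate hybridizations, while the WT and Ftx-/Y eyes have a single array each here. The fit was tested on simulated data. The methods' t-test, the one the study's methods name, was run on linear signals as an alternative. Replicate numbers did not pair the eyes (closing section). Promoters came from RefSeq (GRCm38.p6). Figures were drawn with matplotlib 3.10.9.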

Additional observations from a re-analysis of the deposited data

Results flagged for a closer look

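At Wnt7b all 11 Ftx-/- eyes lay below the mean of WT females and all 3 Ftx-/Y eyes lay above the mean of WT males, but the male change was not called (0.15 ± 0.19 (SE), adjusted p = 0.812 in limma), the male groups overlapped, and its sign turned in 1 of 42 settings (range -0.03 to 0.31). The female change minus the male change was -0.92 on the log2 scale, with an unadjusted p of 0.00134 and an adjusted p of 0.233 in limma, so the difference itself did not pass. Groups of 3 or 11 eyes were not searched for eyes far from the others.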

How the results depend on the processing

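In females 5 of the 13 probes were called. The count was 0 with slide as a fixed block but 4 with it as a random block, 2 with the series table (Sfrp1, Wnt7b, Axin2 A_55_P2000783 and Fzd5 A_51_P166456 lost, Sfrp2 gained), 3 with the methods' t-test and fold limits (Dkk1, Axin2 A_55_P2000783 and, gained, Sfrp2) and 1 with that t-test after Benjamini-Hochberg adjustment (added after seeing the data; Sfrp2 gained, all 5 lost), and 2 to 6 when single eyes were left out, the lowest without WT female eye 1, where only Wnt7b and Sfrp1 were called. The direction of the 5 called probes was kept in all 41 settings run, with log2 fold changes between -0.94 and -0.53 for Wnt7b, -0.61 and -0.14 for Sfrp1, -0.68 and -0.30 for Fzd5 A_51_P166456, 0.41 and 0.81 for Dkk1 and 0.81 and 2.46 for Axin2 A_55_P2000783. The settings reuse the same eyes, and apart from the slide blocks none separates slide from genotype in females. In males the count of 0 became 1 (Msx1, from a single Ftx-/Y eye) with slide as a fixed block. The male calls over all 55681 probes rose from 58 to 458 with that block. By the study's criteria of fold and unadjusted p the count was 1 in males and 6 in females, where Sfrp2 was gained. WT females against WT males gave 1 by those criteria, Ftx-/- females against Ftx-/Y males gave 4 by them, 4 with the t-test and fold limits, 2 with the t-test after adjustment, 2 without the Ftx-/- eyes of slide 2, and 0 to 1 when single eyes were left out, and the difference between the sexes gave 5 by the criteria. Of the 46 other Wnt probes, 21 were called in females and 0 with slide as a block. The cause of these changes was not tested.

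Same-numbered eyes did not deviate together (correlations from -0.22 to 0.14), so the numbers are no pairing. With the replicate block 4 probes were called in females, among them Sfrp2 (0.46), while Sfrp1 (-0.44, adjusted p = 0.0763) and Fzd5 A_51_P166456 (-0.68, adjusted p = 0.0514) were not. The 2 groups alone and the t-test were not run for the difference between the sexes.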
